A study of Mus musculus with 47 samples.

Results

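The core circadian clock genes were examined in the brains of 3xTg mice, a model of Alzheimer's disease (AD). They comprise 10 genes, taken by name from the transcriptional loops of the mammalian clock: Arntl (Bmal1), Clock, Per1, Per2, Per3, Cry1, Cry2, Nr1d1 (Rev-erb alpha), Nr1d2 (Rev-erb beta) and Dbp. Each was found in both deposited tables, among 55416 gene rows. All 10 had at least 208 counts in every library and passed the filter on low counts in both sexes.

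Male and female 3xTg mice, which carry human mutant APP and tau together with a mutant presenilin, were given an amino acid-defined Control diet or a diet low in isoleucine (IleR), leucine (LeuR) or valine (ValR) from 6 months of age for 9 months. Every mouse described here carried the 3xTg genotype, also in the Control groups. The labels list 47 libraries, of which 14 from males (4 Control, 3 IleR, 3 LeuR and 4 ValR) and 23 from females (6 Control, 5 IleR, 6 LeuR and 6 ValR) were analysed. A further 10 labelled male libraries were not used here. The question put to these data was whether restricting a single branched-chain amino acid altered the levels of clock genes in the brain. The mice were killed after a short fast, and the time of day at which each brain was taken is not given in the sources used here, so that differences in collection time between libraries could not be assessed.

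The clock runs on feedback loops of transcription. ARNTL and CLOCK form a dimer that binds E-boxes and switches on the Per and Cry genes, whose proteins return to the nucleus and repress the dimer. The same dimer switches on Nr1d1 and Nr1d2, which encode nuclear receptors that repress Arntl through ROR elements, and Dbp, which encodes an activator that binds D-boxes. In a tissue whose cells keep time together, Arntl RNA peaks at about the opposite time of day from Per, Nr1d1 and Dbp RNA. The suprachiasmatic nucleus of the hypothalamus holds the master clock, and most other brain regions hold clocks of their own.

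The promoter sequences below are shown because they hold matches to the motifs known from these loops. A match describes the letters only. RefSeq promoter windows of build GRCm38.p6, covering 250 bases before to 50 bases after each start, were found for 9 of the 10 genes, with none for Per2. Both strands were searched for the E-box CACGTG, the related CACGTT, the D-box (TTATGTAA or TTACGTAA), the ROR element TAGGTCA and the cAMP response element TGACGTCA. The E-box was found in Per1 and Cry1, CACGTT in Cry1, Cry2 and Nr1d1, the D-box in Per3, the ROR element in Arntl and the cAMP response element in none of the 9 genes. In that order the motifs were found in 8.09%, 5.44%, 1.23%, 2.97% and 2.03% of all 27025 genes with a window, and in 7.15%, 4.68%, 1.06%, 2.61% and 1.79% of all 32851 windows, since a gene can have several. Capitals mark the matches, CACGTT reads AACGTG on the strand shown, and each sequence is written 5′ to 3′ on the strand of its gene. The pieces of Per3, Cry1, Cry2 and Nr1d1 lie before the start of the transcript and that of Arntl lies after it, with the 2 D-boxes of Per3 at 205 and 158 bases before the start. The piece of Per1 lies before 1 of its 2 RefSeq starts but inside the annotated gene, which begins at chr11:69095217.
Per3, chr4:151044786-151044900, minus strand: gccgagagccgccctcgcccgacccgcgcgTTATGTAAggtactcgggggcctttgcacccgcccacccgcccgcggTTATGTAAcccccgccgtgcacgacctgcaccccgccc
Per1, chr11:69098753-69098818, plus strand: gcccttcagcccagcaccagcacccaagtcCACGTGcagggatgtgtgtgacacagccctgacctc
Cry1, chr10:85185079-85185163, minus strand: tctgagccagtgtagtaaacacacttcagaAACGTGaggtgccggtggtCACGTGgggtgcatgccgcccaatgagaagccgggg
Cry2, chr2:92434200-92434265, minus strand: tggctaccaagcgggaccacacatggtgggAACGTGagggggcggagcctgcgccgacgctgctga
Nr1d1, chr11:98775378-98775435, minus strand: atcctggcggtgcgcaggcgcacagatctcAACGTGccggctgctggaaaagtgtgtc
Arntl, chr7:113207530-113207558, plus strand: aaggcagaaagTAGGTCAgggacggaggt

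The order of the clock genes by level was much alike in both sexes. Levels were expressed as CPM, counts scaled to the size of the library after TMM normalization, and, to compare genes, divided by the kilobases of exon in the GENCODE annotation of GRCm38. In the 23 female libraries Nr1d1 stood highest, at 44.6 ± 4.38 CPM per kb (SD, n = 23). Dbp at 24.1 ± 4.42, Nr1d2 at 23.5 ± 3.79, Cry2 at 22.2 ± 2.61 and Per1 at 17.8 ± 3.09 CPM per kb followed, and no neighbours among these 4 differed by more than their summed SD. Per2 at 7.68 ± 1.40, Cry1 at 6.70 ± 1.76, Clock at 6.43 ± 0.780, Per3 at 5.50 ± 0.646 and Arntl at 4.81 ± 0.600 CPM per kb formed the low end, and again no neighbours differed by more than that. Arntl, the obligate activator of the loop, was thus the lowest of the 10 per kb of exon and Nr1d1, its repressor, the highest, and both held the same ranks in the 14 male libraries, at 3.85 ± 1.05 and 40.6 ± 10.4 CPM per kb (SD, n = 14). Across all male libraries the most variable clock gene was Per2, which ranged from 23.6 to 93.3 CPM with a coefficient of variation of 43.6%. In the female libraries it was Cry1, from 14.2 to 38.6 CPM with a coefficient of variation of 26.3%, and the least variable was Nr1d1, at 9.82%.

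4 of the 10 genes share exon bases with a gene on the opposite strand: Dbp with Sphk2 over 18.0% of its exon bases, Nr1d1 with Thra over 8.5%, Cry2 with D930015M05Rik over 4.7% and Arntl with Gm45355 over 0.4%. The library kit keeps the strand, but whether the counting used it is not given in the sources used here, so the values of these genes may include reads of their partner.

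**Figure D1:**
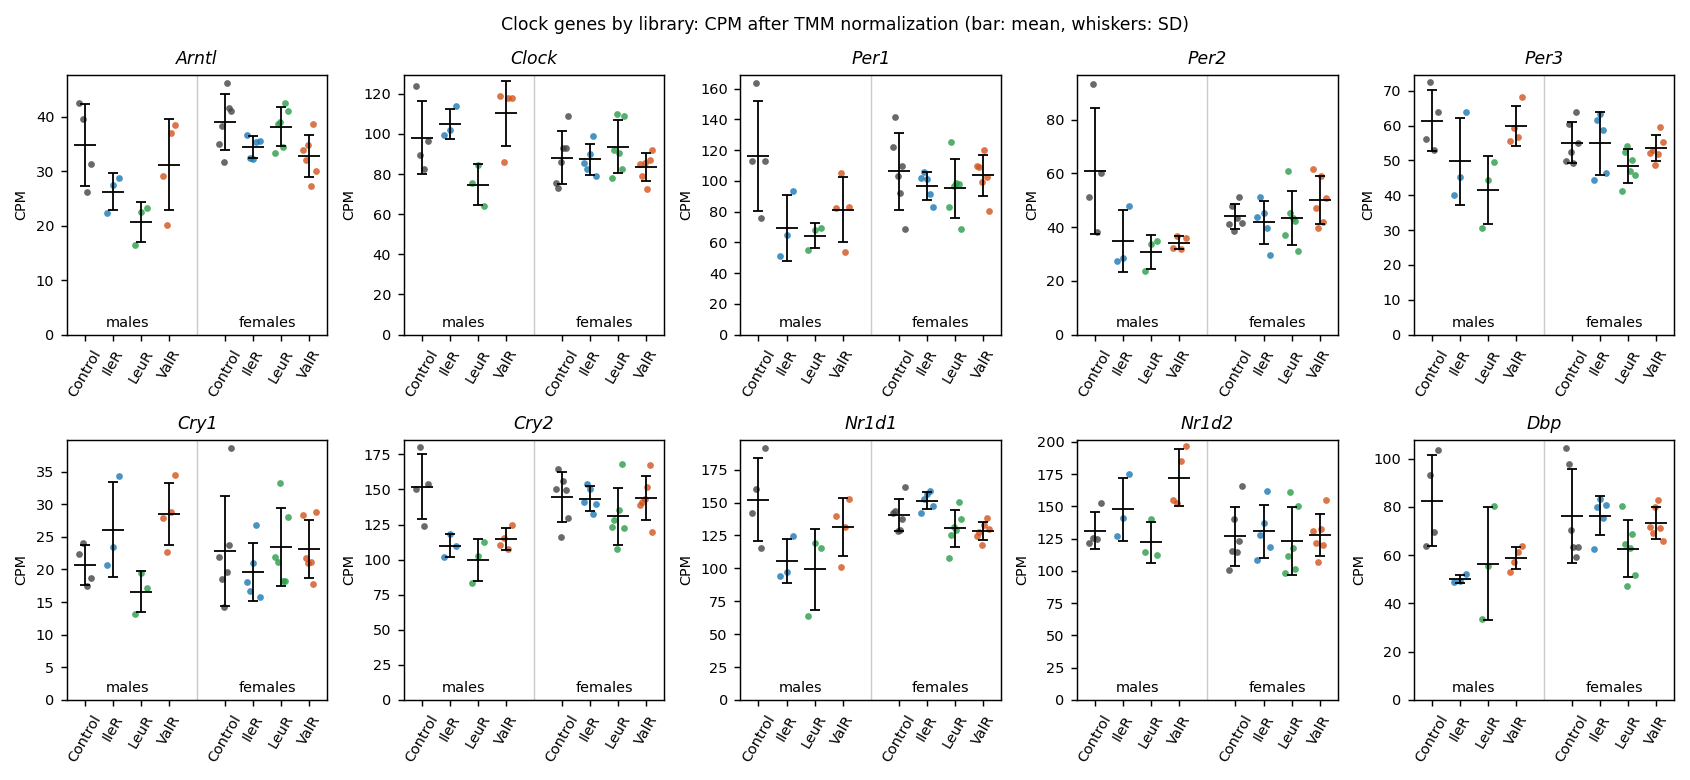
CPM after TMM normalization (y axis, linear, from 0) of the 10 clock genes in each library, by diet, with the males on the left and the females on the right of each panel. Points are libraries, the bar is the group mean and the whiskers are the SD. In males the 3 LeuR libraries lie below all 4 Control libraries for Arntl, Per1, Per2, Per3 and Cry2, while in females the groups overlap for every gene.

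The libraries differed in the RNA levels of brain region markers, and in males these levels differed between Control and every restricted diet. To place each library on this axis, log2 CPM was averaged over 12 cerebellum and 10 brainstem and spinal cord markers, and the average over 12 forebrain markers was subtracted, which gives a hindbrain score. In males the score ran from -7.37 to -4.84 in Control, from 0.819 to 3.05 in IleR, from -3.16 to 3.84 in LeuR and from 3.28 to 5.08 in ValR libraries, with no overlap between Control and the restricted diets. Summed over the forebrain list the male libraries held 2926 to 9977 CPM in Control and 184 to 1514 CPM on the restricted diets. Diet and tissue make-up can therefore not be told apart in males, and in such bulk RNA fewer cells of a type and less RNA per cell cannot be told apart either. In females the groups overlapped, from -7.05 to -0.573 in Control and from -6.99 to 4.11 on the restricted diets. The counts of clock genes called were repeated without male Control 4 and LeuR 21 and female Control 30, ValR 36, LeuR 45 and LeuR 48. These are named the libraries apart in the hindbrain score, a choice made after the values were seen. Other choices could be made. The male LeuR scores were spread evenly, at 3.84, 0.207 and -3.16 in LeuR 19, 20 and 21. Female IleR 41 was kept, at -1.56 beside -3.81 in IleR 40, the next of its group. Total counts ran from 12682687 to 25722333 in males and from 10672599 to 21370973 in females. The RNA came, by the methods of the study, from the left half-brain, while one label names liver and the tissue label brain. The 8 liver markers summed to between 0.290 and 11.2 CPM over the 37 libraries, and the 8 pan-neuronal markers to between 4509 and 7735 CPM.

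Males on the restricted diets had less Cry2 RNA in all 3 comparisons and less Per2 RNA on LeuR and ValR, and more Nr1d2 RNA on ValR. No other clock gene passed the test in a comparison of a restricted diet with Control. P-values came from the quasi-likelihood test of edgeR, with Benjamini-Hochberg adjustment over all 22197 genes tested and a threshold of 0.05. In IleR 1 of the 10 clock genes was called, against 15.3% of all genes, in LeuR 2 of 10, against 10.1%, and in ValR 3 of 10, against 23.5%, so that the share among the clock genes was near that of all genes. At an unadjusted p under 0.05 there were 5, 8 and 5 clock genes in IleR, LeuR and ValR, against 29.6%, 27% and 35.2% of all genes. The median log2 fold change of the 10 genes was -0.44 in IleR, -0.59 in LeuR and -0.19 in ValR, where the median of all genes was 0.04, 0.05 and 0.03. The 3 comparisons share the Control libraries, so they do not give independent values. P-values measure the spread between these libraries, each of which the labels number as a sample of its own.

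Cry2 encodes a repressor of the ARNTL and CLOCK dimer and was the clock gene called most often. Its levels in male Control were 150.4, 180.5, 124 and 154 CPM. Libraries on IleR had 102, 118 and 109.8 CPM and those on LeuR had 83.3, 103 and 113 CPM, all below the lowest Control library, where 14.5% and 9.48% of all genes lay wholly below Control. Libraries on ValR had 110.1, 116, 107 and 125 CPM and overlapped with the lowest Control library. The log2 fold change against Control was -0.47 (SE 0.13) in IleR, with an adjusted p of 0.0266 by edgeR's quasi-likelihood test. It was -0.61 (SE 0.13) in LeuR with an adjusted p of 0.0135, and -0.41 (SE 0.12) in ValR with an adjusted p of 0.0234, from the same test. Cry2 was also the gene with the lowest p among the 10 in the test for any difference over the 4 diets, with an adjusted p of 0.0140.

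How far each Cry2 call rested on 1 library differed between the diets. The LeuR call was lost only without LeuR 19, with a log2 fold change of -0.50 and an adjusted p of 0.0697. The ValR call was lost without Control 3, Control 5, ValR 7 or ValR 10, with adjusted p from 0.0510 to 0.0772 and the fold change nearest 0 at -0.32. The IleR call was lost without Control 1, 3 or 5 or any of the 3 IleR libraries, with adjusted p from 0.0528 to 0.100 and the fold change nearest 0 at -0.38. With the hindbrain score as a covariate the estimate turned to 0.11 (SE 0.23) in IleR and 0.30 (SE 0.27) in ValR, and in LeuR it was -0.17 with an adjusted p of 0.861. The score did not overlap between male Control and the restricted diets, so in males such fits cannot separate diet from score.

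Per2 and Per1 encode repressors of the same dimer and are also induced by neuronal activity. Per2 in male Control was 51.3, 93.3, 38.3 and 60.2 CPM, a range over which Control 3 was the highest and Control 4 the lowest. In LeuR it was 23.6, 33.7 and 35.0 CPM and in ValR 32.4, 36.7, 32.0 and 35.9 CPM, all below the lowest Control library, as were 9.48% and 13.6% of all genes. In IleR it was 27.4, 28.6 and 48.0 CPM, and IleR 17 overlapped with Control. The log2 fold change was -0.98 (SE 0.27, adjusted p = 0.0364) in LeuR and -0.83 (SE 0.25, adjusted p = 0.0269) in ValR by edgeR's quasi-likelihood test. In IleR it was -0.81 (SE 0.27), with an adjusted p of 0.0581 that missed the threshold.

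The Per2 calls depended on single libraries, and neither held with the covariate, a fit that cannot separate diet from score in males. That in LeuR was lost without Control 1, 3 or 5, LeuR 19 or 20, or ValR 7 or 10, with adjusted p from 0.0503 to 0.158 and the fold change nearest 0 at -0.70. That in ValR was lost without Control 3 or 5 or ValR 7, 10 or 12, with adjusted p from 0.0509 to 0.0935 and the fold change nearest 0 at -0.54. With the hindbrain score as a covariate the log2 fold change was -0.25 in LeuR (adjusted p = 0.930) and turned to 0.34 (SE 0.67) in ValR. When only the LeuR and Control libraries were fitted, no clock gene and 0% of all genes were called, with adjusted p of 0.128 for Per2 and 0.0972 for Cry2.

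Per1 was 113, 163, 75.6 and 113 CPM in male Control. It was 54.9, 68.1 and 69.6 CPM in LeuR, below all of Control, and 50.9, 64.9 and 93.1 CPM in IleR and 82.3, 105, 53.7 and 83.2 CPM in ValR, which overlapped with Control. Its log2 fold changes of -0.74 (SE 0.27) in IleR, -0.86 (SE 0.27) in LeuR and -0.52 (SE 0.25) in ValR did not pass the test, with adjusted p of 0.0816, 0.0601 and 0.149 by edgeR. Per3, the third Period gene, was 56.2, 72.5, 53.0 and 63.8 CPM in Control and 30.5, 44.4 and 49.5 CPM in LeuR, without overlap, with a log2 fold change of -0.57 (SE 0.18) and an adjusted p of 0.0661. In IleR and ValR its log2 fold changes were -0.31 (SE 0.18) and -0.03 (SE 0.17).

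Cry1 encodes a repressor like that of Cry2 and was called in none of the 3 comparisons with Control. In male Control it was 22.3, 24.0, 17.5 and 18.7 CPM, in IleR 20.6, 23.4 and 34.4 CPM, in LeuR 13.2, 19.4 and 17.2 CPM and in ValR 27.9, 22.7, 28.8 and 34.5 CPM, with overlap in every comparison. Its log2 fold change was 0.34 (SE 0.20) in IleR, -0.32 (SE 0.20) in LeuR and 0.46 (SE 0.18) in ValR, with adjusted p of 0.276, 0.336 and 0.0840 from edgeR's quasi-likelihood test. Over the 4 diets together Cry1 passed the test for any difference, with an adjusted p of 0.0439, as did Per2 at 0.0353 and Cry2, so 3 of 10 genes were called where 19.3% of all genes were. The Cry1 call was lost in 9 of the 14 fits that left out 1 library, without Control 1, 3 or 5, IleR 14, LeuR 19 or 21, or ValR 7, 10 or 12, with adjusted p from 0.0571 to 0.107. The Per2 call was lost in 8 of them, without Control 1, 3 or 5, IleR 14, LeuR 19, or ValR 7, 10 or 12, with adjusted p from 0.0542 to 0.140, and the Cry2 call without Control 3, at 0.0556.

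Neither activator was called in a comparison with Control. Arntl was 42.5, 39.6, 26.2 and 31.3 CPM in male Control and 16.4, 22.4 and 23.3 CPM in LeuR, without overlap, and its log2 fold change of -0.75 (SE 0.23) had an adjusted p of 0.0502 by edgeR, just above the threshold. In IleR it was 22.3, 27.5 and 28.7 CPM and in ValR 29.2, 20.2, 37.0 and 38.4 CPM, with log2 fold changes of -0.41 (SE 0.22) and -0.16 (SE 0.20). Clock was 124, 89.4, 82.6 and 96.3 CPM in Control, 99.6, 102 and 114 CPM in IleR, 75.3, 84.6 and 64.1 CPM in LeuR and 119, 85.9, 118 and 118 CPM in ValR. Its log2 fold changes of 0.10 (SE 0.15), -0.39 (SE 0.15) and 0.17 (SE 0.14) did not pass the test. LeuR was the diet with the lowest mean of both activators, and all 10 clock genes had a log2 fold change below 0 there, against 7 of 10 in IleR and 7 of 10 in ValR.

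Nr1d1 and Nr1d2 encode the repressors of Arntl, and Nr1d2 on ValR was the only call among their male comparisons with Control. Nr1d2 was 122, 126, 125 and 153 CPM in male Control and 155, 152, 185 and 197 CPM in ValR, where only the lowest ValR library overlapped with the highest Control library. The log2 fold change in ValR was 0.39 (SE 0.13), with an adjusted p of 0.0395 by edgeR's quasi-likelihood test, and the call was lost without Control 1, 3 or 4, IleR 14, or ValR 10 or 12 (adjusted p from 0.0529 to 0.119, the fold change nearest 0 at 0.32). With the hindbrain score as a covariate the estimate was 0.42 and its adjusted p was 0.747. In IleR and LeuR the log2 fold changes of Nr1d2 were 0.17 (SE 0.14) and -0.10 (SE 0.14). Nr1d1 was 142, 159.9, 115 and 191 CPM in Control, 94.5, 97.0 and 125 CPM in IleR, 63.5, 119 and 115 CPM in LeuR and 139.7, 101, 132 and 153 CPM in ValR. Its log2 fold changes of -0.53 (SE 0.22), -0.62 (SE 0.22) and -0.21 (SE 0.20) had adjusted p of 0.130, 0.0944 and 0.509.

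Dbp, whose product activates output genes through D-boxes, was 63.7, 93.1, 69.7 and 104 CPM in male Control. In IleR it was 49.0, 49.1 and 52.1 CPM, a narrow range wholly below Control. In LeuR it was 33.4, 55.6 and 80.4 CPM, with a coefficient of variation of 41.7%, the highest of a clock gene in any male group, and in ValR 53.1, 57.2, 61.2 and 63.8 CPM, where ValR 12 reached the lowest Control library. The log2 fold changes of -0.72 (SE 0.24) in IleR, -0.55 (SE 0.23) in LeuR and -0.49 (SE 0.21) in ValR had adjusted p of 0.0542, 0.150 and 0.121 by edgeR, so none was called. In all, 2 clock genes in IleR, 5 in LeuR and 1 in ValR lay wholly below Control, where 14.5%, 9.48% and 13.6% of all genes did, and none lay wholly above, where 14.8%, 8.21% and 12.7% of all genes did.

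**Figure D2:**
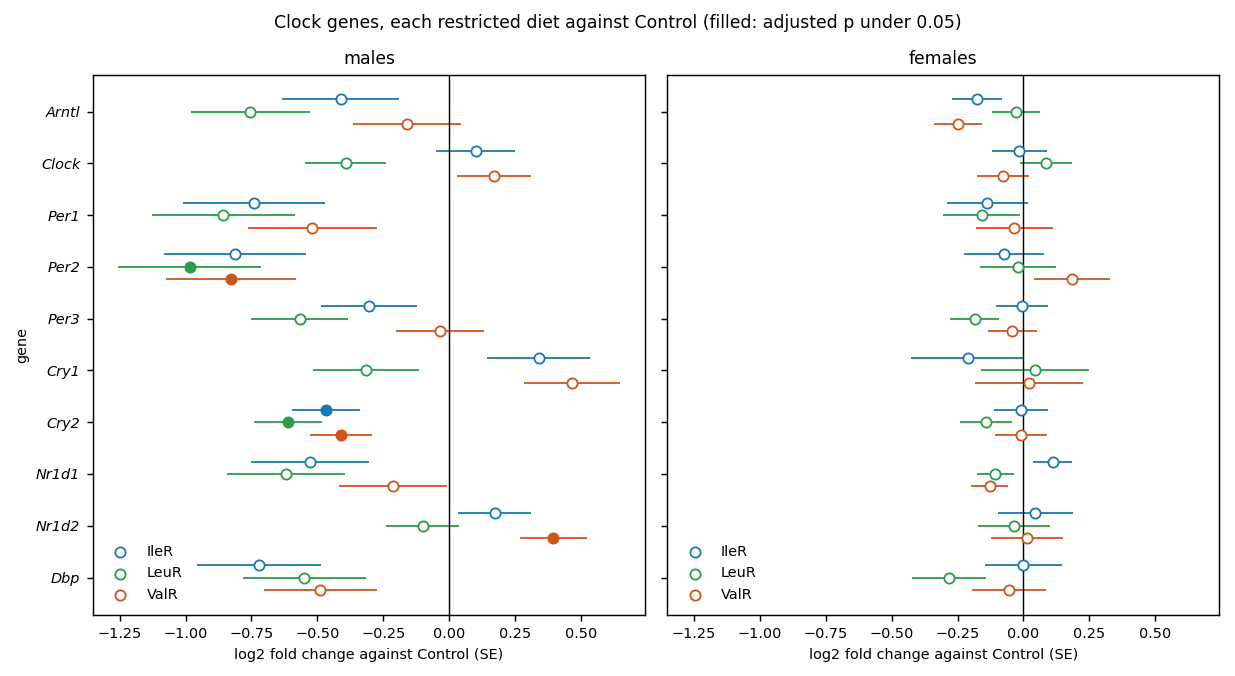
Log2 fold change against Control (x axis) of the 10 clock genes (y axis) on each restricted diet, males on the left and females on the right, with the SE as horizontal bars. Filled points passed the test at an adjusted p under 0.05: Cry2 in 3 male comparisons, Per2 in 2 and Nr1d2 in 1, and no gene in females.

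The number of clock genes called in males moved with single libraries, up and down, and with the way of testing. Leaving out 1 library gave 0 to 4 genes in IleR, 0 to 6 in LeuR and 0 to 4 in ValR. In IleR it was 0 without Control 3, Control 5, IleR 13 or IleR 14. Without Control 4, whose hindbrain score was the highest of its group, 4 genes were called lower in IleR (Cry2, Dbp, Per1 and Per2) and 6 in LeuR (Arntl, Cry2, Nr1d1, Per1, Per2 and Per3), where 19.5% and 17.8% of all genes were called in that fit. Without LeuR 21, the library with the lowest score of the restricted diets, 5 were called in LeuR, against 15.2% of all genes. DESeq2 called 4 in IleR and 6 in LeuR, against 19.7% and 16.3%, while limma voom called 1 in IleR, 2 in LeuR and 3 in ValR, against 16.7%, 10.9% and 23.3%. With the hindbrain score as a covariate no clock gene was called in any of the male comparisons, and of all genes 0.00451% were called in IleR, 0.0496% in LeuR and 0% in ValR.

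In females no clock gene passed the test in any comparison, and for none of them did a restricted group lie wholly above or below Control. Of all genes, 0.108% lay wholly above and 0.143% wholly below Control in IleR, 0.133% and 0.0836% in LeuR, and 0.0737% and 0.0541% in ValR. Of all 20344 genes tested, 0% were called in each of the 3 comparisons by edgeR, while 2.84% in IleR, 4.03% in LeuR and 3.82% in ValR had an unadjusted p under 0.05. Of the clock genes, 0, 0 and 1 had an unadjusted p under 0.05, and DESeq2 and limma voom called none of the 10 either. The 1 gene was Arntl in ValR, with a log2 fold change of -0.25 (SE 0.09), an unadjusted p of 0.0115 and an adjusted p of 1.00 by edgeR. Arntl in the 6 female Control libraries ranged from 31.7 to 46.3 CPM with a median of 39.7, and in the 6 ValR libraries from 27.3 to 38.6 CPM with a median of 32.9, so the groups overlapped. The log2 fold changes of the 10 genes ran close to 0, with medians of -0.01 in IleR, -0.07 in LeuR and -0.04 in ValR, beside -0.01, 0.00 and -0.01 over all genes. The estimate farthest from 0 was that of Dbp in LeuR, -0.28 (SE 0.14), and the SE of single genes ran from 0.07 for Nr1d1 to 0.22 for Cry1.

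The test for any difference over the 4 female diets called 0 of the 10 clock genes and 4 of all genes, or 0.0197%. At an unadjusted p under 0.05 there were 2 clock genes, Arntl and Nr1d1, against 4.41% of all genes. Nr1d1 had the lowest unadjusted p of the 10, 0.0129, with an adjusted p of 1.00 by edgeR. It was at 140.4 ± 12.3 CPM in Control (SD, n = 6), 152 ± 6.79 in IleR (SD, n = 5), 130.4 ± 14.0 in LeuR (SD, n = 6) and 129 ± 6.96 in ValR (SD, n = 6). The group means of Nr1d1 lay within a narrow band, and each restricted group overlapped with Control.

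Whether a diet acted differently on a clock gene in females and in males was tested as the female effect minus the male effect, in 1 model of all 37 libraries and 22465 genes. Per2 in ValR was the single call among the 10 genes, where 4.25% of all genes were called and 3.57% were called with a difference above 0, with a difference of 1.02 on the log2 scale (SE 0.27) and an adjusted p of 0.0318 by edgeR's quasi-likelihood test. Per2 in female Control ranged from 38.8 to 51.2 CPM with a median of 42.5, and in female ValR from 39.6 to 61.6 CPM with a median of 49.0, with a log2 fold change of 0.18 (SE 0.14), beside the fold change of -0.83 in males. The female groups overlapped, while the male ValR libraries lay below all male Control libraries. This call was lost without female Control 30, ValR 31 or ValR 34, or male Control 3, Control 5, ValR 7, ValR 10 or ValR 12, with adjusted p from 0.0501 to 0.0976 and the difference nearest 0 at 0.76, and limma voom gave an adjusted p of 0.0567. With the hindbrain score as a covariate the difference was 0.81 with an adjusted p of 0.609. In the same ValR comparison of the sexes 10 of 12 forebrain markers and 7 of 14 immediate early genes were called above 0. The median differences of these 2 lists were 5.72 and 2.76, and their part in the Per2 call was not tested. In IleR and LeuR none of the 10 genes was called, where 0.0979% and 0.00445% of all genes were. At an unadjusted p under 0.05 there were 5, 6 and 2 clock genes in IleR, LeuR and ValR, against 19.1%, 13% and 26% of all genes. The estimates with the lowest p there were Nr1d1 in IleR, 0.65 (SE 0.19, adjusted p = 0.0878 by edgeR), and Arntl in LeuR, 0.70 (SE 0.20, adjusted p = 0.140 by edgeR).

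Several clock genes followed the hindbrain score from library to library within the female diet groups. The relation was computed on log2 CPM and on the score after the mean of each diet was subtracted, with a permutation test of libraries within diets (100000 resamples, two-sided) and Benjamini-Hochberg adjustment over the 10 genes. It was chosen after the values were seen, as 1 of 4 library measures, the others being the immediate early genes described next, the level of Malat1 and the total count. In the 23 female libraries Nr1d2 rose with the score, with r = 0.87 and rho = 0.75 (permutation p = 1e-05, the smallest these resamples can give, adjusted p = 1e-04). Cry1 with r = 0.80 and rho = 0.78 (permutation, adjusted p = 0.000250) and Clock with r = 0.75 and rho = 0.63 (permutation, adjusted p = 0.000467) did so too. Cry2 ran the other way, with r = -0.72 and rho = -0.75 (permutation, adjusted p = 0.00207), followed by Dbp with r = -0.59 and rho = -0.53 (adjusted p = 0.0182) and Per1 with r = -0.51 and rho = -0.48 (adjusted p = 0.0451). Without the 2 libraries farthest from the median score these r were 0.84, 0.77, 0.72, -0.59, -0.48 and -0.61, so each kept its sign. Per2 with r = -0.07, Arntl with r = -0.01, Nr1d1 with r = 0.24 and Per3 with r = 0.28 did not pass the test. At an unadjusted permutation p under 0.05 there were 6 of the 10 clock genes (n = 23), against 61.7% of the 13888 genes whose log2 CPM averaged 1 or more (10000 resamples), so that the share among the clock genes was near that of all genes.

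The part of the score in the male diet results was not tested. Within the male diet groups no gene passed the test against the score (n = 14), with the largest r for Dbp at -0.83 (permutation p = 0.0648, adjusted p = 0.214), which fell to -0.40 without the 2 libraries farthest from the median. At an unadjusted permutation p under 0.05 there was 1 of the 10, against 10.7% of 13996 genes in males.

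**Figure D3:**
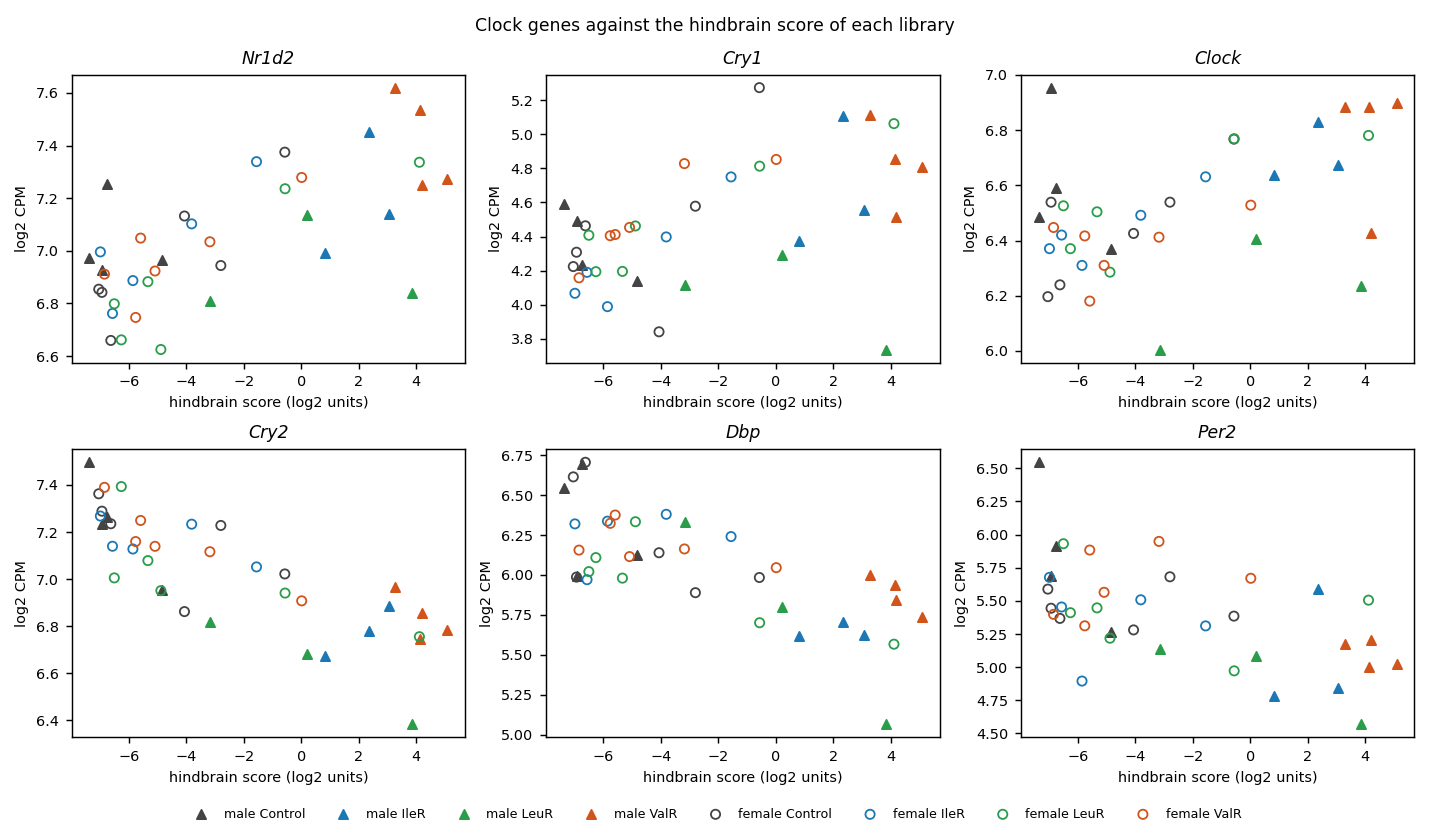
Log2 CPM (y axis) of 6 clock genes against the hindbrain score in log2 units (x axis), 1 point per library, with males as filled triangles, females as open circles and the diets in colours. Nr1d2, Cry1 and Clock rise with the score among the female libraries, Cry2 and Dbp fall, and Per2 shows no slope there.

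Immediate early genes, which neurons switch on within minutes of activity, also differed between the libraries. Their mean log2 CPM over 14 genes was 4.12 to 5.86 in male Control and 2.48 to 3.97 on the restricted diets in males, without overlap, and 3.31 to 5.71 and 2.84 to 5.78 in females. In males 9 of 14 were called lower in IleR, 8 in LeuR and 11 in ValR, where 8.68%, 6.33% and 12.4% of all genes were. Within the female diet groups Per1 rose with this mean, with r = 0.70 and rho = 0.61 (n = 23, permutation, adjusted p = 0.00945) and r = 0.78 without the 2 libraries farthest from the median. Cry2 rose with it (r = 0.59, rho = 0.66, permutation, adjusted p = 0.0299), and Cry1 (r = -0.74, rho = -0.76, permutation, adjusted p = 0.00390), Nr1d2 (r = -0.66, rho = -0.50, permutation, adjusted p = 0.0169) and Clock (r = -0.60, rho = -0.50, permutation, adjusted p = 0.0328) ran against it. Without the 2 farthest libraries these r were 0.47, -0.55, -0.44 and -0.36. At an unadjusted permutation p under 0.05 there were 5 of the 10 clock genes in females, against 51.6% of all genes, and 3 of 10 in males, against 5.82%. In males Per2 had r = 0.79 and Per1 r = 0.70 with this mean (n = 14), with adjusted permutation p of 0.0889 and 0.0743 that missed the threshold. The part of the immediate early genes in the diet results was not tested. Of the other measures, the level of the nuclear RNA Malat1 passed with Clock in males (r = 0.90, rho = 0.82, n = 14, permutation, adjusted p = 0.0197, r = 0.83 without the 2 farthest libraries), where 3 of the 10 and 22.7% of all genes had an unadjusted permutation p under 0.05. In females Malat1 passed with no clock gene, with 4 of the 10 and 21.8% of all genes at an unadjusted permutation p under 0.05. The total count passed with no clock gene in either sex.

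Relations between clock genes from library to library were examined because the loops hold genes of opposite phase. Such genes would run against each other if the brains had been collected at different times of a shared cycle. Collection times are not given, so their part in these relations was not tested. In males 42 of the 45 pairs had r above 0, with a median r of 0.57, after the diet means were subtracted. Over all pairs of the 13996 male genes whose log2 CPM averaged 1 or more, 50.6% had r above 0 and the median r was 0.01. Of the 45 pairs, which share genes with each other, 10 passed the permutation test at an adjusted p under 0.05 over the 45, all with r above 0. None passed without Control 4 and LeuR 21, the libraries apart in the hindbrain score, where 40 of the 45 r were above 0. An r of at least 0.708 in size, the smallest called, was found in 13 of the 45 pairs and in 7.43% of all pairs of genes. Per2 with Per3 had r = 0.87 and rho = 0.94 (n = 14, permutation, adjusted p = 0.00315), Per1 with Per2 r = 0.85 and rho = 0.92 (permutation, adjusted p = 0.00315), and Arntl with Cry1 r = 0.82 and rho = 0.82 (permutation, adjusted p = 0.00705). Without the 2 libraries farthest from the median of the first gene these r were 0.94, 0.89 and 0.78. The other 7 pairs were Per3 with Cry1, Cry2, Nr1d1 and Dbp, Per1 with Per3 and Cry2, and Cry1 with Nr1d1, with r from 0.71 to 0.80. By Spearman's rho 5 of the 10 passed as well.

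In females 27 of the 45 pairs had r above 0 and the median r was 0.15, beside 50.1% and a median of 0.00 over all pairs of genes. There 6 pairs passed, 4 with r above 0 and 2 below, and an r of at least 0.607 in size, the smallest called, was found in 6 of the 45 and in 18.1% of all pairs of genes. Without the 4 female libraries apart in the score 1 pair passed, Per1 with Per2. Clock ran against Dbp with r = -0.80 and rho = -0.78 (n = 23, permutation, adjusted p = 0.00585) and with Nr1d2 at r = 0.77 and rho = 0.67 (permutation, adjusted p = 0.00607). Clock with Cry1 (r = 0.69, adjusted p = 0.0181), Cry1 with Nr1d2 (r = 0.67, adjusted p = 0.0212), Per1 with Per2 (r = 0.61, adjusted p = 0.0181) and Cry2 with Nr1d2 (r = -0.62, adjusted p = 0.0288) were the others by the same permutation test. Without the 2 libraries farthest from the median of the first gene the 6 r ran from -0.77 to 0.67 and kept their signs, and 3 of the 6 passed by rho. Per1 with Per2 was the 1 pair called in both sexes, and 30 of the 45 pairs had r of the same sign in both.

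The pairs of Arntl with genes of opposite phase had r of both signs. Arntl with Dbp had r = -0.44 in females and 0.35 in males, Arntl with Per2 -0.16 and 0.43, Arntl with Per1 -0.22 and 0.16, and Arntl with Nr1d1 0.28 and 0.67, and none of these 8 values passed the test, with adjusted permutation p from 0.0652 to 0.716. Once the hindbrain score was also removed, 1 pair was called in males, Per1 with Per2 at r = 0.85 (n = 14, permutation, adjusted p = 0.00225), and 4 in females. These were Per1 with Per2 (r = 0.67), Clock with Dbp (r = -0.67), Cry2 with Nr1d1 (r = 0.70) and Arntl with Clock (r = 0.66), with adjusted permutation p of 0.0236, 0.0236, 0.0357 and 0.0427 (n = 23). Arntl then had r = -0.55 with Dbp in females (permutation, adjusted p = 0.0838) and -0.04 in males. With Per1, Per2, Per3 and Nr1d1 its r was -0.27, -0.16, 0.08 and 0.30 in females. In males these were 0.04, 0.27, 0.35 and 0.55, and none of them passed the test. Without the libraries apart in the score, Per1 with Per2 had r = 0.78 in males (n = 12, permutation, adjusted p = 0.0520), which missed the threshold, and r = 0.71 in females (n = 19, permutation, adjusted p = 0.0360). The number of pairs called ran from 2 to 12 in males and from 2 to 8 in females when 1 library was left out, with the fewest without male LeuR 19 and without female LeuR 48. In the males 5 or fewer were called without Control 1, 3 or 4, ValR 10 or 12, IleR 13, or LeuR 19, 20 or 21, and 6 without IleR 17. In the females 3 were called without Control 30, IleR 41 or LeuR 45.

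**Figure D4:**
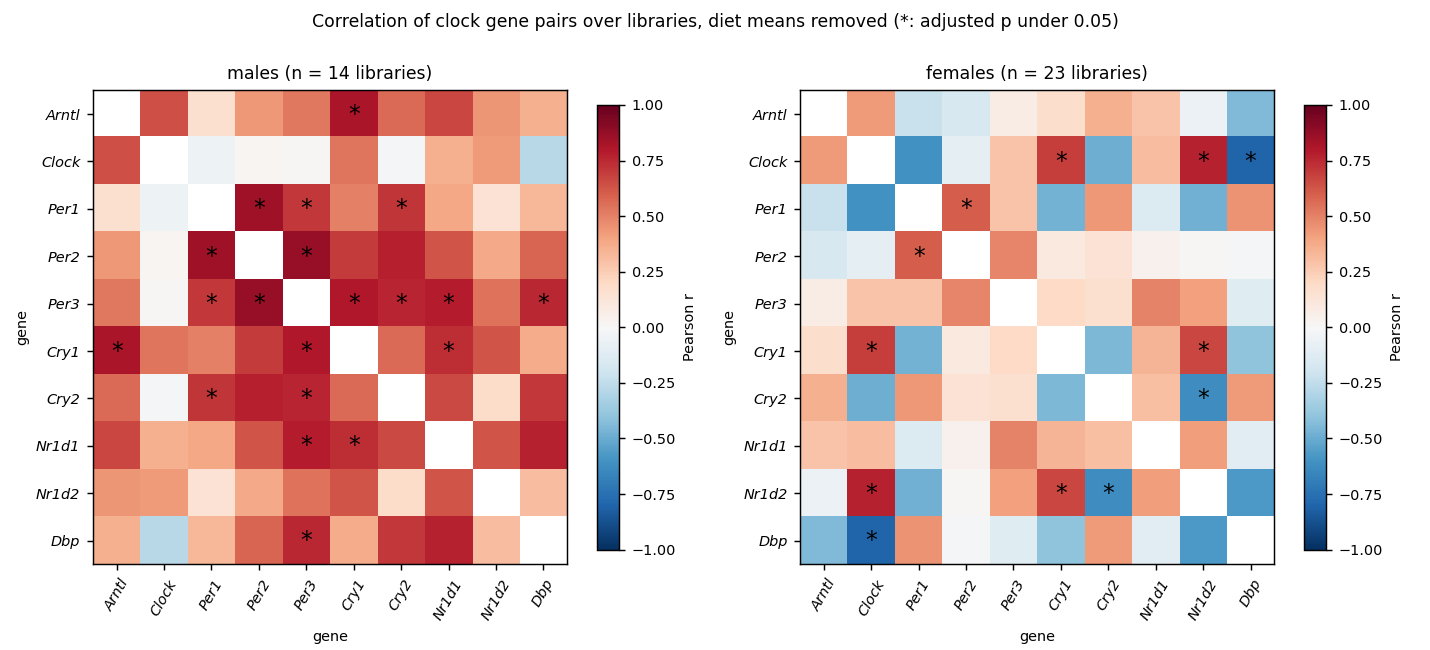
Pearson r (colour, from -1 in blue to 1 in red) between the log2 CPM of each pair of clock genes over libraries, after the mean of each diet was subtracted, for 14 male libraries on the left and 23 female libraries on the right. Stars mark pairs with an adjusted permutation p under 0.05, which are 10 in males, all above 0, and 6 in females, of which 2 are below 0.

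Npas2 and Rorb were called lower in males on all 3 restricted diets, among 10 further genes of the clock loops. Of these 10, 2 were called higher and 3 lower in IleR, 1 and 3 in LeuR and 2 and 4 in ValR, with a median log2 fold change of -0.16, -0.36 and 0.07. The part higher or lower among all genes was 6.63% and 8.68%, 3.81% and 6.33%, and 11.1% and 12.4%. Npas2, the forebrain paralog of Clock, fell by 2.50 in IleR (SE 0.37), 1.88 in LeuR (SE 0.36) and 2.55 in ValR (SE 0.33) on the log2 scale, with adjusted p of 0.00130, 0.00841 and 0.000219 by edgeR. Rorb, which encodes a receptor that binds the ROR element, fell by 1.62, 1.29 and 1.84 (adjusted p = 0.00565, 0.0259 and 0.000801), Rora rose by 1.08 in IleR and 1.32 in ValR (adjusted p = 0.0141 and 0.00188), and Bhlhe40, a repressor at E-boxes, fell by 1.11, 1.20 and 0.82 in the 3 diets (adjusted p = 0.00301, 0.00544 and 0.00555). In females none of the 10 was called. The forebrain and cerebellum markers differed in the same comparisons: of 12 cerebellum markers 11, 7 and 11 were called higher in IleR, LeuR and ValR, and of 12 forebrain markers 11, 9 and 12 lower, and their part in these results was not tested. None of the 10 was called in males with the score as a covariate. That fit called almost none of all genes, at the shares given above for the clock genes.

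Among 10 output genes of the clock, 2 were called higher and 3 lower in male IleR, 0 and 3 in LeuR and 2 and 3 in ValR, with medians of -0.09, -0.15 and 0.17. The shares of all genes were 6.63% and 8.68%, 3.81% and 6.33%, and 11.1% and 12.4%. Hlf and Tef, which encode D-box binding relatives of DBP, were both lower. Hlf fell by 1.30 in IleR, 1.47 in LeuR and 1.29 in ValR (SE 0.22, 0.22 and 0.20, adjusted p = 0.00192, 0.00386 and 0.000516 by edgeR), and Tef by 0.57, 0.71 and 0.43 (adjusted p = 0.0146, 0.0101 and 0.0264). Wee1, a cell cycle kinase gene driven by the clock, fell by 0.34, 0.44 and 0.29 in the 3 diets (adjusted p = 0.0256, 0.0132 and 0.0240). Cirbp and Rbm3, RNA-binding proteins induced by mild cold, rose in ValR by 0.82 and 0.87 (adjusted p = 0.0197 and 0.000666), and in IleR by 0.80 and 0.48 (adjusted p = 0.0423 and 0.0439). In females none of the 10 was called, and Tef in LeuR had the lowest unadjusted p, 0.0295, with a log2 fold change of -0.19. In these male comparisons 11, 9 and 12 of the 12 forebrain markers were called lower and 11, 7 and 11 of the 12 cerebellum markers higher, and their part in the results of the output genes was not tested. None of the 10 output genes was called in males with the score as a covariate, a fit in which 0.00451%, 0.0496% and 0% of all genes were called in IleR, LeuR and ValR. Hlf and Npas2 were called in the ValR comparison of the sexes, at 1.20 (SE 0.30, adjusted p = 0.0270) and 2.34 (SE 0.63, adjusted p = 0.0352). There 3.57% of all genes and 10 of the 12 forebrain markers were called with a difference above 0. The part of these markers was not tested.

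Of 8 kinases and ubiquitin ligases that act on clock proteins, 2 were called lower in male IleR, none in LeuR and 2 lower and 1 higher in ValR, with medians of -0.09, -0.16 and -0.07. Of all genes 8.68%, 6.33% and 12.4% were called lower in the 3 diets, and 6.63%, 3.81% and 11.1% higher. Csnk1e, the gene of casein kinase 1 epsilon, which phosphorylates PER proteins, fell by 0.48 in IleR and 0.49 in ValR (SE 0.11 and 0.10, adjusted p = 0.0109 and 0.00390 by edgeR). Btrc, a ligase subunit that marks PER proteins for breakdown, fell by 0.30 and 0.33 (adjusted p = 0.0307 and 0.00918), and Fbxw11 of the same family rose by 0.35 in ValR (adjusted p = 0.0167). Glucocorticoid-responsive genes, which carry a daily hormonal signal, gave 1 lower of 8 in IleR, 1 lower in LeuR and 2 higher and 1 lower in ValR, with medians of -0.34, -0.18 and 0.34, and their counts too stand beside those shares of all genes. Zbtb16 fell by 1.68, 1.54 and 1.20 (adjusted p = 0.00537, 0.0151 and 0.0112), while Errfi1 and Plin4 rose by 0.50 and 1.87 in ValR (adjusted p = 0.0284 and 0.0474). Plin4 was also called in the ValR comparison of the sexes, at -2.42 (SE 0.70, adjusted p = 0.0452), where 0.677% of all genes were called below 0. None of these 16 genes was called in females, and none in males with the hindbrain score as a covariate, where the same 0.00451%, 0.0496% and 0% of all genes were called. The lower forebrain and higher cerebellum markers moved in the same male comparisons, and their part in these calls was not tested.

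Peptide genes of the suprachiasmatic nucleus were mostly low. Of 5 such genes, Nms and Prok2 reached at most 1.13 and 2.15 CPM in the males and 0.349 and 1.48 CPM in the females. Vip, which cortical interneurons also express, ranged from 16.3 to 45.3 CPM in male Control, from 1.07 to 5.65 in IleR, from 4.16 to 5.30 in LeuR and from 1.51 to 3.17 in ValR. It fell by 3.52, 2.92 and 4.04 on the log2 scale (SE 0.50, 0.48 and 0.46, adjusted p = 0.00117, 0.00526 and 0.000131 by edgeR), beside the lower forebrain markers of these libraries. Avp, a hypothalamic peptide gene, had 1 or 2 counts in each male Control library and 2, 0 and 1828 counts in LeuR 19, 20 and 21, so that its call in LeuR rested on LeuR 21 and no fold is given. Female LeuR libraries ranged from 0 to 93.2 CPM of Avp.

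The genes whose level ran most closely with 4 clock genes were sought over the 23 female libraries, among the 13888 genes whose log2 CPM averaged 1 or more, after the diet means were subtracted. These r are descriptions, since the genes share libraries, depth and tissue make-up. For Arntl the highest r were those of Ncor1 (0.79), Zfp148 (0.74), Ubtd2 (0.73), Ncoa6 (0.71) and Frmpd4 (0.70), and the lowest those of Hcrtr2 (-0.78), Tacr3, Ubfd1, Mrrf and Rnd2 (each -0.73). The r of Ncor1 with Arntl was 0.86 in the 14 male libraries and 0.79 in females once the hindbrain score was removed. For Per2 the highest were Prdm15 (0.79), Spred2 (0.75), Banp (0.68), Opa3 (0.68) and Sssca1 (0.67), and the lowest Pigk (-0.74), Smim19 (-0.72), Gpr153 (-0.68), Scfd1 (-0.67) and Ccdc71 (-0.66).

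For Dbp the highest were Pbx2 (0.89), Ovca2 (0.87), Isyna1 (0.86), ENSMUSG00000118668 (0.84) and Rbck1 (0.84), and the lowest Dnajb14 (-0.84), Lsm11 (-0.83), Mon2 (-0.83), Ezh1 (-0.82) and Osbpl6 (-0.82). In males Pbx2 had r = 0.05 and Dnajb14 -0.40 with Dbp. For Nr1d1 high r were those of Slc25a28 (0.83), Rims4 (0.80), Rbm3 (0.78) and Phospho1 (0.78), and the lowest Tmed7 (-0.83), Efcab1 (-0.80), Zfp462 (-0.79), Fyb (-0.76) and Ly86 (-0.75). Rims4 had r = 0.79 with Nr1d1 in males too, while Rbm3 had 0.19 and Tmed7 0.44. Of the 4 genes with the highest r, Ncor1, Prdm15, Pbx2 and Slc25a28, the male r with the same clock gene was 0.86, 0.61, 0.05 and 0.28.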

How the data were processed

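RNA-seq was analysed in 37 of the 47 labelled brain libraries. The submitters' processing notes name the genome build GRCm38, and the authors deposited expected counts per Ensembl gene and library without normalization. The aligner and its version are not given in the sources used here, and the labels describe the RNA selection both as polyA enrichment and as total RNA. The deposited fold changes and p-values of the authors' own comparisons were not used. The same notes name R 3.4.3, edgeR and limma.

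After rounding to whole numbers, edgeR 4.0.16 in R 4.3.3 was used (TMM, quasi-likelihood test, Benjamini-Hochberg over all genes tested), in 1 model of the 4 diets per sex and 1 of both sexes for interactions. A gene was kept if some diet group had 1 count or more for it in each of its libraries. SE is the size of the log2 fold change divided by the square root of F. Alternatives used limma 3.58.1, DESeq2 1.42.0, other scaling and filters, the hindbrain score, only 2 groups, and each library left out. Log2 CPM for correlations used a prior count of 2. Counting error was small beside the spread: chi-square per degree of freedom was at least 9.09 in each of 73 pairs of libraries of a group. The fits were tested on simulated data. Symbols and positions came from GENCODE, and 52083 of 55416 identifiers had a symbol. Named genes are the 10 clock genes, up to 4 called genes of each further list and comparison by smallest adjusted p, otherwise up to 2 by smallest p, and the 5 highest and 5 lowest r for Arntl, Per2, Dbp and Nr1d1. Some genes that this rule names are not reported here. Members and lists were chosen with earlier results of these data known. Lists of astrocyte, oligodendrocyte, microglia, endothelial, choroid plexus and blood markers were also counted. In males, where 15.3%, 10.1% and 23.5% of all genes were called in IleR, LeuR and ValR, 2, 1 and 3 of 8 astrocyte markers were called higher and 1, 1 and 1 lower, 0, 0 and 0 of 8 microglia markers higher and 2, 0 and 4 lower, and 1, 1 and 1 of 8 pan-neuronal markers higher and 2, 1 and 2 lower. None of the 8 oligodendrocyte, 8 endothelial, 8 choroid plexus, 5 blood or 6 measured liver markers was called. In females none was called.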

Additional observations from a re-analysis of the deposited data

Results flagged for a closer look

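The log2 fold change of Per2 in ValR against Control differed between the sexes by a test of the difference itself. It was 1.02 for females minus males (adjusted p = 0.0318 by edgeR's quasi-likelihood test). The call was lost in 8 of the 37 fits that left out 1 library, with limma voom (adjusted p = 0.0567) and with the hindbrain score as a covariate (adjusted p = 0.609). In the same comparison 10 of 12 forebrain markers and 7 of 14 immediate early genes were called above 0. Their part was not tested. In 60 groups of 4 to 6 libraries, 2 clock gene values stood far from the rest of their group, where chance flags about 1 group in 20. Clock in male ValR 9 was at 85.9 CPM, against 118 CPM in the nearest of the other 3 libraries. Nr1d2 in male Control 5 was at 153 CPM, against 126 CPM in the nearest. Without Control 5 the Nr1d2 call in ValR held.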

How the results depend on the processing

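No paired analysis was possible because the labels number the libraries without repeats, so that no number links libraries of different diets. Of the single-gene results, 12 turned sign with the hindbrain score as a covariate, none with an adjusted p under 0.05: in males Per3 0.49, Cry2 0.11, Nr1d1 0.48 and Dbp 0.66 in IleR, Dbp 0.45 in LeuR, Per2 0.34, Cry2 0.30, Nr1d1 1.04 and Dbp 1.21 in ValR, and for the sexes in ValR Clock 0.19, Cry1 0.39 and Nr1d2 0.26. The number of clock genes called in male IleR was 4 with DESeq2 (19.7% of all genes), 2 with RLE factors (15.5%), a mean count of at least 10 (21.1%) or only 2 groups (14.4%), and 0 with the covariate (0.00451%). In male LeuR it was 6 with DESeq2 (16.3%) and 0 with the covariate (0.0496%) or only 2 groups (0%), and in ValR 0 with the covariate (0%). Over any diet it was 9 with DESeq2 (28.7%) and 0 with the covariate (0.0225%). Between the sexes DESeq2 called 1 in IleR (4.68%) and 2 in LeuR (1.41%), the covariate 1 in LeuR (0.441%) and 0 in ValR (0%), and limma voom 0 in ValR (0.129%). Without the libraries apart in the hindbrain score the counts were 4, 7 and 5 for male IleR, LeuR and any diet (24%, 22.3% and 26.1% of all genes), 3, 4 and 2 between the sexes in IleR, LeuR and ValR (8.4%, 9.1% and 15.7%), and 0 male and 1 female pair. The cause was not tested. Pairs called numbered 25 in males without centring on diets, 1 with the score removed and 4 with library totals, and 10 in females with library totals. Leaving out 1 library gave 0 to 4 genes in male IleR, 0 to 6 in LeuR, 0 to 4 in ValR and 0 to 6 over any diet. It gave 0 to 1, 0 to 2 and 0 to 1 between the sexes, 0 to 0 in all female comparisons, and 2 to 12 male and 2 to 8 female pairs. The level of Dbp in male IleR was 52.0 CPM with library totals. Every clock gene had at least 208 counts in every library, and the male groups held 3 or 4 libraries.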
